A study of Mus musculus with 12 samples.

Results

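Translation efficiency (TE) in low folic acid (LF) was set against TE in medium folic acid (MF) in neural stem cells (NSCs) of the mouse. TE was the ratio of polysome mRNA to total mRNA, and its change was taken, on the log2 scale, as polysome over total in LF minus polysome over total in MF. The change was measured between 8 of the 12 libraries of the series, while the spread behind the p-values was estimated over all 12. It was taken for 14421 of the 43432 listed genes, those with enough counts to be tested. The NSCs came from the subventricular zone of wild-type male C57BL/6 mice aged 6 to 8 weeks, and all groups grew as a monolayer with EGF, bFGF and B27. LF cells were kept in 1.5 µM folic acid, MF cells in 10 µM and high folate (HF) cells in 80 µM, collected on day 4 with a change of medium on the way. From each dose, total and polysome mRNA were sequenced in duplicate, and MF was the reference dose of the study. For polysome mRNA, cycloheximide was added, lysates were run on a sucrose gradient, and fractions holding more than 3 ribosomes were pooled before poly(A) selection. The labels call the replicates biological without naming separate animals or cultures, so the p-values measure the spread between these libraries only.

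A ribosome that translates an mRNA is soon followed by others, and an mRNA that carries many of them sediments deep in a sucrose gradient as a polysome. The share of an mRNA found there is therefore a common measure of how actively it is translated, separate from how much of it the cell holds. Short mRNAs have room for few ribosomes, so the cut-off on ribosome number sets a different bar for short and long coding sequences. Folate supplies single-carbon groups for nucleotide synthesis and methylation, and growing cells spend much of their translation capacity on ribosomal proteins.

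The polysome LF libraries were unequal. They differed more than 2-fold in 14.6% of the genes, against 0.225% in polysome MF and 0.244% in polysome HF, and the leading axis of variation among polysome libraries (65.5% of the variance) put LF replicate 2 at 59.3 and the other 5 between -25.2 and -3.76. Medians and many of the values below are therefore given in each LF library, and counts of called list members also without that library. Library totals were between 20506797 and 28170296 counts. Markers of NSCs were present throughout, at a sum of 5642 to 7806 CPM (counts scaled to equal library size) over 20 genes. The 8 microglial markers summed to 6.04 to 19.3 CPM and the 6 erythroid markers to at most 0.23 CPM. The 12 mesenchymal and mural markers summed to 733 and 583 CPM in polysome LF and 642 and 634 CPM in polysome MF, which overlap. The 10 neuronal markers summed to 105 and 142 CPM in polysome LF and 167 and 147 CPM in polysome MF, the 8 astrocyte markers to 779 and 703 CPM in LF and 878 and 811 CPM in MF, and the 8 markers of the oligodendrocyte lineage to 101 and 78.0 CPM in LF and 127 and 104 CPM in MF, each without overlap. The 6 ependymal markers (6.24 and 5.58 CPM in LF, 6.57 and 7.38 CPM in MF) and the 8 endothelial markers (6.75 and 7.32 CPM in LF, 6.07 and 6.71 CPM in MF) were low throughout. The total mRNA libraries did not show the lower LF sums of the neuronal, astrocyte and oligodendrocyte lineage markers. There, both neuronal sums of LF (340 and 331 CPM) exceeded those of MF (312 and 306 CPM). The doses overlapped for astrocytes (LF 730 and 731 CPM, MF 747 and 717 CPM) and the oligodendrocyte lineage (LF 119 and 124 CPM, MF 128 and 123 CPM). The part of the listed cell types in the results was not tested, and in bulk samples fewer cells of a type and less RNA per cell cannot be told apart.

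Of 14421 genes, 34 (0.236%) were called in the fit over all 12 libraries. A call needed an adjusted p under 0.05 in edgeR's quasi-likelihood test and a fold above 1.2. TE fell in 29 (0.201%) and rose in 5 (0.0347%), and 22 of the 34 encode proteins, of which 21 fell. Ribosomal proteins (8 genes), metallothioneins (3) and respiratory chain subunits (3) made up 14 of the 21. The fitted changes of the 21 lay between log2 -2.39 and -0.96, with a median of -1.63, and their adjusted p between 0.0148 and 0.0497. At an unadjusted p under 0.05, 1178 genes were lower (8.17%) and 1099 higher (7.62%). Both LF ratios lay below both MF ratios in 3527 genes (24.5%) and above them in 3503 (24.3%). All 34 called genes were among these. HF values are given for some of the named genes, and the HF and LF differences are measured from the same MF libraries.

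**Figure D1:**
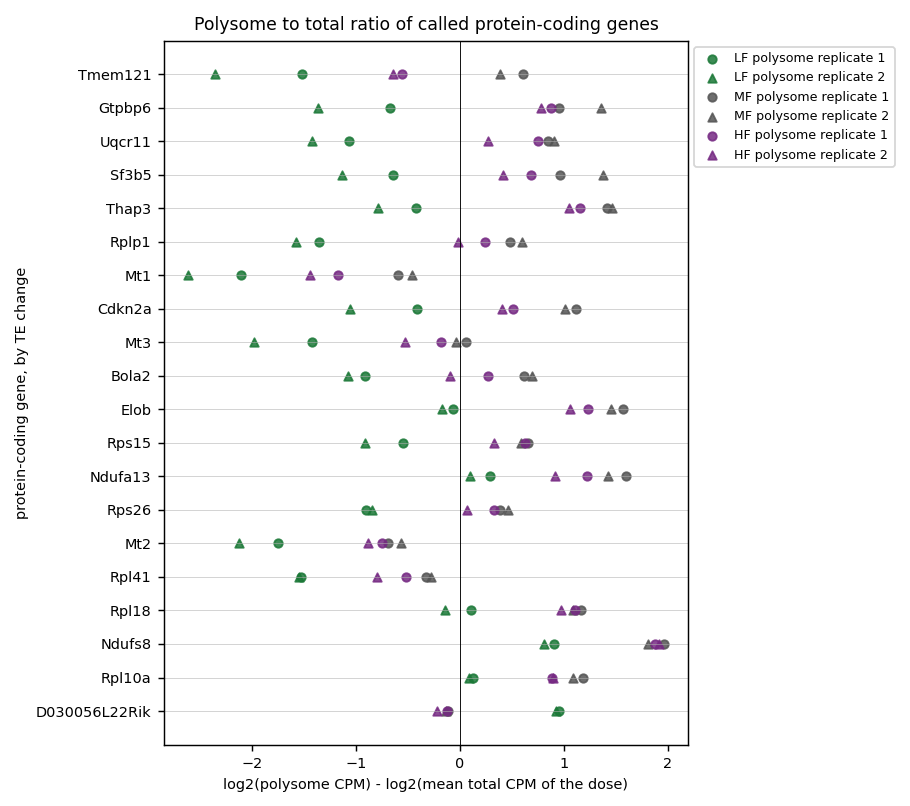
Log2 ratio of polysome CPM to the mean total CPM of the same dose (x axis) for 20 of the 22 called protein-coding genes (rows), with LF in green, MF in grey and HF in purple, a circle for replicate 1 and a triangle for replicate 2. In 19 rows both LF points lie left of both MF points, and in D030056L22Rik they lie to the right.

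The changes lay in the polysome libraries. Among the 21 genes with lower TE, total mRNA in LF differed from MF by log2 -0.18 to 0.20 in the same fit, and polysome mRNA by -2.53 to -0.91. None of these total mRNA changes passed the test, with an adjusted p of 1.0 in each. The same held for all 13004 tested coding genes. Fewer ribosomes per mRNA and fewer mRNAs carrying more than 3 of them cannot be told apart in such pooled fractions.

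**Figure D2:**
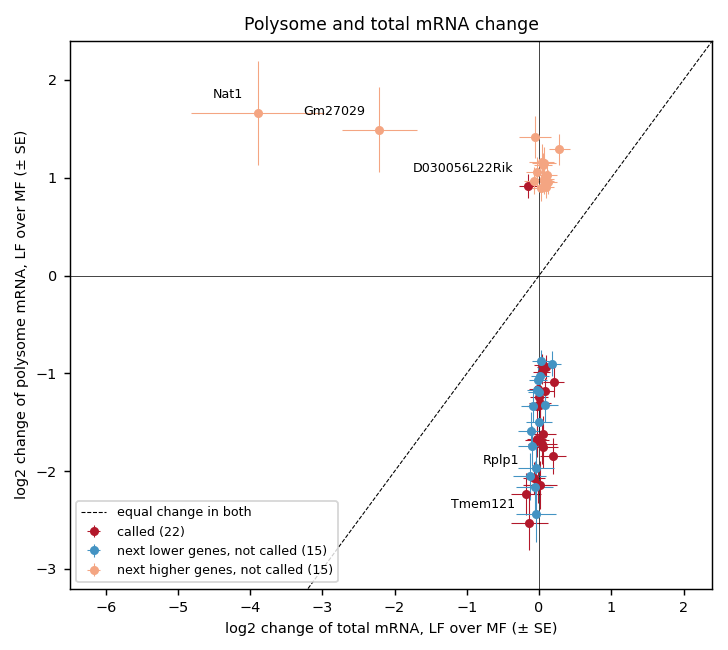
Log2 change of polysome mRNA (y axis) against that of total mRNA (x axis), LF over MF, with bars of 1 standard error, for the 22 called protein-coding genes and the next 15 in each direction. Nearly all points stand close to the vertical line of no change in total mRNA, and Nat1 and Gm27029 are the 2 with a lower total level in LF.

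Ribosomal protein genes gave the largest group. Rplp1 encodes an acidic protein of the stalk where translation factors bind. Its log2 ratio was -1.35 and -1.57 in the LF libraries, 0.48 and 0.60 in MF and 0.25 and -0.02 in HF (4.0-fold lower in LF, log2 SE 0.22, adjusted p = 0.0148). Rpl18 (-1.14 ± 0.17 SE) and Rpl10a (-1.03 ± 0.17 SE), proteins of the large subunit, also fell. Rpl41, whose coding sequence is the shortest of all tested genes at 78 bases, had 172 and 170 CPM in polysome LF and 397 and 409 CPM in polysome MF. Its change was -1.24 ± 0.17 SE (adjusted p = 0.0334), and the LF libraries gave nearly the same value. A coding sequence this short has room for few ribosomes, while the polysome fractions were pooled by a cut-off on ribosome number. What brought Rpl41 mRNA into these fractions was not tested. The fall is therefore in polysome over total counts, and is not shown to be a fall in translation of Rpl41.

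In the small subunit, Rps26 and Rps15 fell. Rps26, which lies near the mRNA exit channel, had ratios of -0.90 and -0.85 in LF, 0.39 and 0.47 in MF and 0.33 and 0.07 in HF. Rps15 was at 328 and 255 CPM in polysome LF and 746 and 712 CPM in polysome MF (change -1.34 ± 0.21 SE, adjusted p = 0.0484). No LF value of these genes reached an MF value.

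The family did not move as a block. Of its 79 members, all tested, 8 fell and none rose, and the change was below 0 in 51. DESeq2 called 27 lower and 1 higher, where it called 3.5% of the 12185 genes to which it gave an adjusted p lower and 1.76% higher, and limma voom 12 lower and none higher, where it called 0.264% of all genes lower and 0.0555% higher. Both LF ratios lay below both MF ratios in 41 members and above them in 19, and the median change was log2 -0.19, where the median of all tested genes was 0.02. At an unadjusted p under 0.05, 33 members were lower and 8 higher. The members with the smallest p among the higher ones were Rps24 (0.89 ± 0.24 SE, adjusted p = 0.153), Rps15a (0.61 ± 0.18 SE, adjusted p = 0.18) and Rpl39 (1.16 ± 0.39 SE, adjusted p = 0.213). Rps24 had 772 and 1156 CPM in polysome LF and 496 and 492 CPM in polysome MF. Without polysome LF replicate 2, 30 members were called lower and 2 higher, where 4.03% of all genes tested in that fit were called lower and 2.74% higher. That fit leaves LF with a lone polysome library, which is assumed to vary as the others do. Mitochondrial ribosomal proteins, 77 tested, had a median of -0.01 and no called member (13 lower and 10 higher at an unadjusted p under 0.05, 6 called lower and 2 higher by DESeq2, none by voom, and 6 lower and 2 higher without polysome LF replicate 2).

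**Figure D3:**
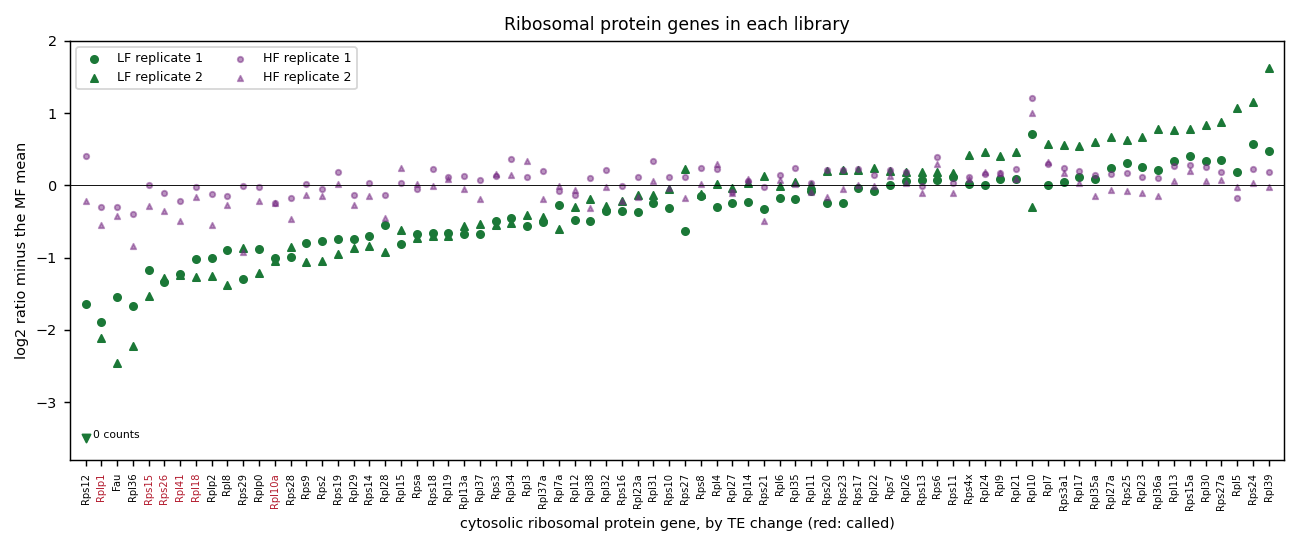
Log2 polysome to total ratio minus the MF mean (y axis) of 76 of the 79 cytosolic ribosomal protein genes, ordered by TE change (x axis, called genes in red), with LF in green, HF in purple, circles for replicate 1 and triangles for replicate 2. Both LF libraries are low for the genes at the left and at or above 0 for most genes at the right, and the HF points stay closer to 0. Rps12 had 0 counts in polysome LF replicate 2 and is drawn at the edge.

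Within the family, base composition went with the change. The 40 members whose transcripts have a GC content at or above the median of the family (51.8%) had a median change of log2 -0.78, and the 39 below it 0.13. In LF replicate 1 alone these medians were -0.72 and 0.00, and in LF replicate 2 alone -0.86 and 0.22. Coding length did not divide them, with a median of 458 bases in the GC-rich members and 456 in the others. With a trend on GC content removed from each library, a setting chosen after the data were seen, 11 members were called lower and none higher, at a background of 0.624% lower and 0.617% higher.

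Many mRNAs of ribosomal proteins start with a cytosine and a run of pyrimidines, the TOP element, through which growth signals govern their translation. In RefSeq start windows (GRCm38.p6), 58 of the 79 genes had an entry, and in 13 (22.4%) the annotated start was a C followed by at least 4 bases that were C or T, against 2.51% of all 32851 windows. The search read the coding strand at the annotated start only. The median change was -0.18 in these 13 and -0.13 in the other 45. Of the 8 called members only 5 had a window, and none of these 5 was among the 13. An annotated start that misses the true one hides the element, so the other 45 are not shown to lack it. The starts of the lowest and highest of the 13 are shown from 10 bases before the start to 20 after it, with the pyrimidine run in capitals. Fau (chr19:6057937-6057966, plus strand) and Rplp2 (chr7:141447641-141447670, plus strand) were lower in both LF libraries, and Rps6 (chr4:86857348-86857377, minus strand) and Rps15a (chr7:118116128-118116157, minus strand) were not.
Fau: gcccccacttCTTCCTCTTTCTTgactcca
Rplp2: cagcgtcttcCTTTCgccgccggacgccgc
Rps6: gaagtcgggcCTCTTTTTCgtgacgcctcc
Rps15a: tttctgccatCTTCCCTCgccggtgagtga

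Respiratory chain subunits fell in complexes I and III. Uqcr11, a small subunit of complex III, had 19.6 and 15.3 CPM in polysome LF and 75.4 and 78.3 CPM in polysome MF, with total mRNA at 37.3 and 44.8 CPM in LF and 42.3 and 41.1 CPM in MF (TE change -2.11 ± 0.26 SE, adjusted p = 0.0284). Uqcrq, another subunit of the complex, had ratios of -1.10 and -1.41 in LF and 0.73 and 1.47 in MF and stood just outside the threshold (-2.39 ± 0.40 SE, adjusted p = 0.0508). Ndufa13, a complex I subunit that the study followed at the protein level, had 68.7 and 60.1 CPM in polysome LF, 169 and 150 CPM in MF and 130 and 105 CPM in HF (change -1.32 ± 0.21 SE, adjusted p = 0.0497). Ndufs8, which carries iron-sulphur clusters of complex I, had ratios of 0.91 and 0.81 in LF and 1.97 and 1.81 in MF (-1.03 ± 0.17 SE, adjusted p = 0.0497). With the GC trend removed, Ndufa13 was at -0.40 (adjusted p = 0.572) and Ndufs8 at -0.35 (adjusted p = 0.576), and neither was called.

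How many of the nuclear-encoded subunits were called differed with the tool. Of 36 complex I subunits, 2 fell, 17 had both LF ratios below MF and 8 above, and the median was -0.22. DESeq2 called 9 lower and none higher, voom 2 lower, and the fit without polysome LF replicate 2 called 11 lower and none higher. Of 26 subunits of complexes II, III and IV, 1 fell, 11 lay below MF and 8 above, and the median was -0.08. DESeq2 called 6 lower and 2 higher, voom 1 lower, and the fit without that library 7 lower and 3 higher. The shares over all genes in these fits are those given for the ribosomal proteins. The lowest of the uncalled members by p included Uqcr10 (-1.21 ± 0.22 SE, adjusted p = 0.0738) and Ndufa2 (-1.05 ± 0.20 SE, adjusted p = 0.0757). On the other side, the electron carrier Cycs was at 1.02 ± 0.28 SE (adjusted p = 0.158), Uqcrb at 0.90 ± 0.28 SE and Cox5a at 0.69 ± 0.17 SE (adjusted p = 0.13). The 18 nuclear-encoded ATP synthase genes had a median of 0.02, with 9 below MF and 6 above, and none was called (2 lower and 3 higher at an unadjusted p under 0.05, 1 called lower by DESeq2, none by voom, and 2 lower without polysome LF replicate 2).

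The 13 mRNAs made in the mitochondrion are translated by mitochondrial ribosomes, and how they came into the polysome fractions was not tested. They took 0.488% and 0.943% of the counts in polysome LF, 0.535% and 0.723% in MF and 0.578% and 0.299% in HF, so the doses overlapped. None was called by edgeR (1 lower and 2 higher at an unadjusted p under 0.05) or voom, and DESeq2 called 1 lower and 1 higher. Their median difference from MF was -0.40 in LF replicate 1 and 1.18 in LF replicate 2. The fitted median was 0.25, and it was -0.25 with the GC trend removed and -0.44 without polysome LF replicate 2. On the lower side, mt-Nd3 had 0 counts in both polysome LF libraries, 39 and 19 in MF and 0 in both HF libraries (adjusted p = 0.18). Among the 3 with the smallest p in the higher direction, mt-Atp6 was at 1.58 ± 0.51 SE (adjusted p = 0.201) and mt-Nd5 at 0.89 ± 0.39 SE (adjusted p = 0.303).

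Metallothioneins are small cysteine-rich proteins that bind zinc and copper, and Mt3 is the form best known from brain. The genes lie side by side on chromosome 8 of mm10, Mt3 from 94152607 to 94154146, Mt2 from 94172664 to 94173568 and Mt1 from 94179082 to 94180327. Mt1 had 13.4 and 9.42 CPM in polysome LF, 36.8 and 40.2 CPM in MF and 22.8 and 18.9 CPM in HF (TE change -1.81 ± 0.29 SE, adjusted p = 0.0484). Mt3 had 84.8 and 57.5 CPM in polysome LF, 226 and 212 CPM in MF and 164 and 129 CPM in HF (-1.68 ± 0.25 SE, adjusted p = 0.0374). Mt2 had 42.9 and 33.0 CPM in polysome LF and 77.5 and 84.3 CPM in MF, with total mRNA at 137 and 151 CPM in LF and 120 and 130 CPM in MF (-1.29 ± 0.21 SE, adjusted p = 0.0497). LF and MF did not overlap in any of the 3. With the GC trend removed, Mt3 was at -0.68 (adjusted p = 0.159) and was not called, while Mt1 and Mt2 were. The zinc exporter Slc30a1 was at 0.35 ± 0.24 SE (adjusted p = 0.501).

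The coding sequences of 6 short genes are shown for their base composition. They are printed from start to stop codon, both in capitals, as GENCODE M21 gives them for mm10. Rpl41 (chr10:128548387-128548960, minus strand), Uqcr11 (chr10:80404166-80406745, minus strand), Mt1 (chr8:94179311-94180193, plus strand) and Sf3b5 (chr10:13008623-13008883, plus strand) fell. Rpl39 (chrX:37082701-37085127, minus strand) and Gng11 (chr6:4004316-4008160, plus strand) were on the higher side without passing. At the last base of the codons the share of G or C was 80.8%, 79.0%, 87.1% and 93.1% in the genes that fell, against 57.7% in Rpl39 and 47.3% in Gng11. It was 74.2% in Mt2 and 72.5% in Mt3, which also fell, and 52.1% in Sumo2, which did not pass. These genes were chosen for their length after their values were known. Of the 21 coding genes that fell, 15 had a coding sequence under 600 bases. The share was not measured in the others of these, so the contrast holds for the genes named here only. The share is not the GC content of the whole transcript. With the trend on transcript GC content removed, Sf3b5 was at -2.25, against -2.05 in the fit reported. Rpl41, Uqcr11 and Mt1 were then at -0.77, -1.39 and -1.18, against -1.24, -2.11 and -1.81.
Rpl41: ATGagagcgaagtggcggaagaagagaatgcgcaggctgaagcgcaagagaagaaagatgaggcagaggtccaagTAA
Uqcr11: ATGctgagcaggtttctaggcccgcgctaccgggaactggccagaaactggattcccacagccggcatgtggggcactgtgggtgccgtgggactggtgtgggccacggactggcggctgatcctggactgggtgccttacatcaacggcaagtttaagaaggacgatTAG
Mt1: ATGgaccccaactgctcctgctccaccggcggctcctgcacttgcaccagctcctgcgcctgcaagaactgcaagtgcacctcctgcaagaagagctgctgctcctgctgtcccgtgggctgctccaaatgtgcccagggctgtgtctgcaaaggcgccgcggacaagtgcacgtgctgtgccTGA
Sf3b5: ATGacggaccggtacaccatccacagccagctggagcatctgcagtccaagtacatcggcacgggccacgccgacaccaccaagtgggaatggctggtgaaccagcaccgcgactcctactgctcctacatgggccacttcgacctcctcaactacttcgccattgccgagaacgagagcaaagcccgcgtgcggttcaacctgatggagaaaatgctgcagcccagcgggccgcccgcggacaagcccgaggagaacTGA
Rpl39: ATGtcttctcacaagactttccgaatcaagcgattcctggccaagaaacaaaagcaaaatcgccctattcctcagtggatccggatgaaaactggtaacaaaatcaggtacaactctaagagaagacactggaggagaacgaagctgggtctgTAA
Gng11: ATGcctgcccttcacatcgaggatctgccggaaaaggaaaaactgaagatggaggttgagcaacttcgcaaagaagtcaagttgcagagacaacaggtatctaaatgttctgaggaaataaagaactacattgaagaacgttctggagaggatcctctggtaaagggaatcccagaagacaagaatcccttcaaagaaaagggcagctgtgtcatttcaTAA

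The other called protein-coding genes belong to no common list. Elob encodes elongin B, an adaptor of transcription elongation and of ubiquitin ligases. It had 68.4 and 63.2 CPM in polysome LF, 217 and 201 CPM in MF and 176 and 156 CPM in HF (TE change -1.63 ± 0.19 SE, adjusted p = 0.0162), the smallest adjusted p after Rplp1 among coding genes. Its partner Eloc was at 0.46 ± 0.30 SE (adjusted p = 0.459). Sf3b5, a small subunit of the splicing complex SF3B, had 8.54 and 6.05 CPM in polysome LF and 29.5 and 39.2 CPM in MF (-2.05 ± 0.30 SE, adjusted p = 0.0334), while the median of 10 SF3A and SF3B genes was -0.13. Cdkn2a, which encodes the cell cycle inhibitors p16 and p19Arf, had 9.76 and 6.22 CPM in polysome LF, 27.3 and 25.4 CPM in MF and 18.9 and 17.6 CPM in HF (-1.77 ± 0.29 SE, adjusted p = 0.0497).

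Thap3, a zinc finger protein, had ratios of -0.42 and -0.78 in LF and 1.42 and 1.47 in MF (-2.04 ± 0.26 SE, adjusted p = 0.0284). Bola2, of a family that works in iron handling, was at 9.11 and 8.12 CPM in polysome LF and 27.0 and 28.3 CPM in MF (-1.65 ± 0.24 SE, adjusted p = 0.0334). Gtpbp6, a GTPase of mitochondrial ribosomes, was at 4.15 and 2.55 CPM in polysome LF and 12.7 and 16.9 CPM in MF (-2.15 ± 0.34 SE, adjusted p = 0.0484). Tmem121, a membrane protein gene, had the lowest level of the group, 1.10 and 0.61 CPM in polysome LF and 5.35 and 4.57 CPM in MF (-2.39 ± 0.38 SE, adjusted p = 0.0484). In these 4 genes too the LF and MF ratios did not overlap.

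D030056L22Rik was the single coding gene whose TE rose. It had 48.8 and 47.8 CPM in polysome LF, 25.8 and 25.5 CPM in MF and 25.9 and 24.3 CPM in HF, with total mRNA at 24.6 and 25.7 CPM in LF and 28.7 and 27.1 CPM in MF (TE change 1.06 ± 0.18 SE, adjusted p = 0.0497). Its HF values lay at the level of MF. It lies on chromosome 19 from 18713193 to 18718428.

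The remaining 12 called genes were pseudogenes, antisense genes and a sequence of unknown status, whose counts are uncertain because RSEM divides read pairs between similar or overlapping genes. Prss23os had 0 counts in both polysome LF libraries and a mean of 32.9 CPM in polysome MF, which against a floor of 3 counts per library is at least 269-fold lower in LF. Gm8203 was likewise at least 282-fold lower, and Gm10052, with 0 counts in both polysome MF libraries, at least 57.8-fold higher. For 11 of the 12, the transcript matched or overlapped a coding gene over part or all of its length at 98.9% to 100% identity, and the counts were summed with that partner. No sum was called. Prss23 with Prss23os stood at -0.04 ± 0.15 SE, Hnrnpa1 with Gm10052 at 0.03 ± 0.19 SE and Rpl14 with Rpl14-ps1 at 0.02 ± 0.15 SE. Rpl13 alone was at 0.57 ± 0.21 SE and its copy Gm12918 at -2.17 ± 0.29 SE, and their sum was at -0.28 ± 0.18 SE.

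A sum that stayed low was Fau with its identical copy Gm9843. Fau encodes Rps30 fused to a ubiquitin-like protein. The sum had 146 and 131 CPM in polysome LF, 379 and 372 CPM in MF and 317 and 275 CPM in HF, with total mRNA at 151 and 188 CPM in LF and 174 and 175 CPM in MF (TE change -1.40 ± 0.19 SE, adjusted p = 0.0568). Ribosomal protein genes in general have many processed copies, so the split between copies adds to the error of each member.

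Just below the threshold, the 15 coding genes of smallest p in each direction had adjusted p between 0.0508 and 0.0685 when lower and between 0.0508 and 0.105 when higher. Among the lower ones, Metrn, which encodes a secreted factor of glia, had 72.6 and 46.6 CPM in polysome LF and 181 and 218 CPM in MF (-1.65 ± 0.28 SE, adjusted p = 0.057). Gadd45g, a stress and differentiation gene, had 11.6 and 6.00 CPM in polysome LF, 37.9 and 41.0 CPM in MF and 17.3 and 15.9 CPM in HF (-2.10 ± 0.37 SE, adjusted p = 0.0589). Clpp, the mitochondrial matrix protease, was at -1.14 ± 0.21 SE (adjusted p = 0.0664). Rplp0 and Rps2 of the ribosome and Polr2i of RNA polymerase II stood in the same range.

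Among the higher ones, Paip1, which binds poly(A)-binding protein and promotes translation, had 288 and 355 CPM in polysome LF and 141 and 153 CPM in MF (1.07 ± 0.18 SE, adjusted p = 0.0508). Cyclin A2 (Ccna2) had 251 and 255 CPM in polysome LF, 139 and 132 CPM in MF and 97.1 and 109 CPM in HF (0.80 ± 0.15 SE, adjusted p = 0.0809). Srsf2, a splicing factor that also binds methylated cytosine in RNA, had 243 and 191 CPM in polysome LF and 109 and 110 CPM in MF (0.92 ± 0.19 SE, adjusted p = 0.0907). Id4, an inhibitor of differentiation factors in neural progenitors, had 19.8 and 17.6 CPM in polysome LF and 7.42 and 7.85 CPM in MF (1.01 ± 0.22 SE, adjusted p = 0.096). Gng11, a G protein gamma subunit, had 15.3 and 23.2 CPM in polysome LF and 7.66 and 6.77 CPM in MF (1.47 ± 0.31 SE, adjusted p = 0.0907). The pentraxin Ptx3, which the study followed for higher TE in HF, was not among these 15. It had 7.69 and 5.66 CPM in polysome LF and 2.92 and 2.88 CPM in MF (1.07 ± 0.42 SE, adjusted p = 0.265). The median GC content of the 15 higher genes was 44.9% and of the 15 lower ones 57.3%, against 50.4% for all tested coding genes.

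**Figure D4:**
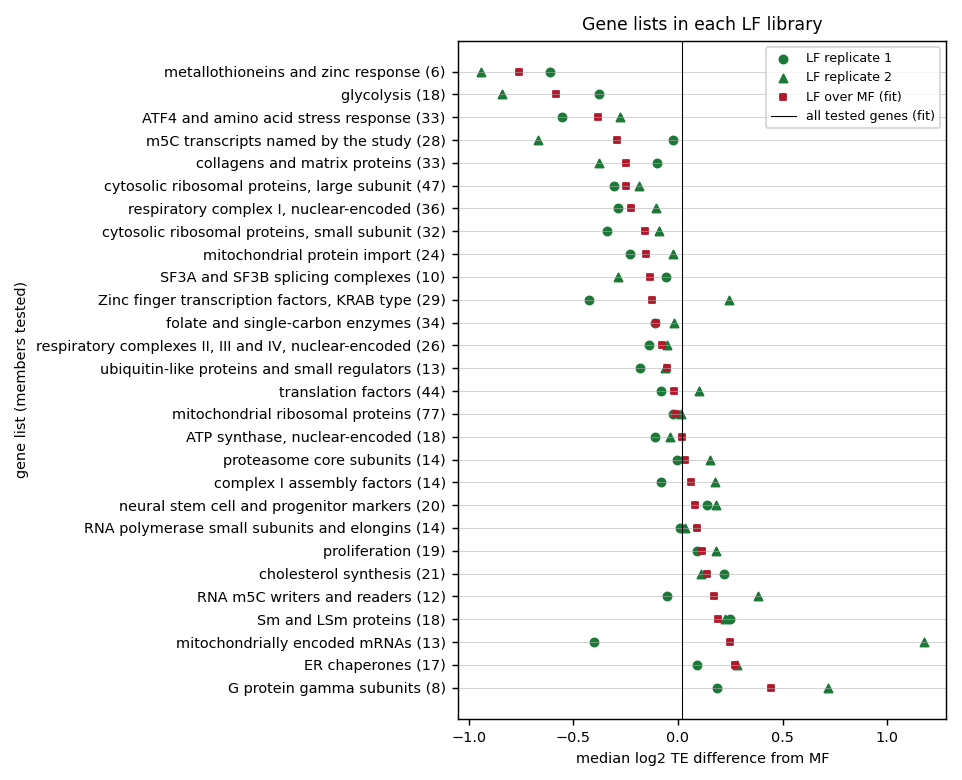
Median log2 difference from MF (x axis) of each gene list with at least 5 tested members (rows, with the number tested), in LF replicate 1 (green circle), LF replicate 2 (green triangle) and the fit of both (red square). The vertical line is the median of all tested genes (0.02), and the lists at the top are low in both LF libraries apart from the m5C transcripts, which are low in replicate 2 only.

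Amino acid and glucose metabolism gave no call by edgeR or voom but leaned to one side, and DESeq2 called 4 lower genes of the ATF4 response (12.1% of 33) and 2 of glycolysis (11.1% of 18), where it called 3.5% of all genes lower. Of 33 genes of the ATF4 response, which raises amino acid synthesis and import under stress, 29 were below 0, 18 had both LF ratios below MF and 1 above, 7 were lower at an unadjusted p under 0.05 and none higher, and the median was -0.38. Shmt2, the mitochondrial enzyme that feeds serine into folate metabolism, had 278 and 208 CPM in polysome LF and 594 and 654 CPM in MF (-1.14 ± 0.21 SE, adjusted p = 0.0738). Phgdh, the entry enzyme of serine synthesis, had ratios of 1.37 and 0.83 in LF, 2.30 and 2.26 in MF and 2.15 and 2.42 in HF (-1.15 ± 0.23 SE, adjusted p = 0.0861). Without polysome LF replicate 2, 11 of the 33 were called lower and none higher. Of 18 glycolysis genes, 17 were below 0, 15 lay below MF and none above, and 9 were lower at an unadjusted p under 0.05 and none higher, with a median of -0.58 (-0.38 in LF replicate 1 and -0.84 in replicate 2). Without that library 3 were called lower. Eno1, an enolase, had 880 and 546 CPM in polysome LF and 1529 and 1313 CPM in MF (-0.87 ± 0.28 SE, adjusted p = 0.202). With the GC trend removed, the median was -0.24 for the ATF4 response and -0.34 for glycolysis, and no member of either list was called.

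Folate enzymes and transporters, 34 tested, lay on both sides, with 11 below MF, 9 above and a median of -0.11. None was called (5 lower and 3 higher at an unadjusted p under 0.05, 2 called lower and 1 higher by DESeq2, none by voom, and 2 lower and 2 higher without polysome LF replicate 2). The folate carrier Slc19a1 had 17.0 and 10.8 CPM in polysome LF and 28.4 and 31.7 CPM in MF (-1.12 ± 0.29 SE, adjusted p = 0.147). Translation factors, 44 tested, had a median of -0.02 and no called member (7 lower and 7 higher at an unadjusted p under 0.05, 3 called lower by DESeq2, none by voom, and 5 lower and 2 higher without polysome LF replicate 2). Eif6, which keeps ribosomal subunits apart, was at -1.10 ± 0.22 SE (adjusted p = 0.0861), the translation repressor Eif4ebp1 at -0.96 ± 0.21 SE (adjusted p = 0.096) and the elongation factor Eef2 at -1.25 ± 0.36 SE (adjusted p = 0.174), while the cap-binding Eif4e was at 0.66 ± 0.24 SE (adjusted p = 0.243).

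NSC identity genes did not pass. Nes, the intermediate filament nestin, had 412 and 252 CPM in polysome LF and 568 and 651 CPM in MF (-0.74 ± 0.29 SE, adjusted p = 0.266). Sox2, the stem cell transcription factor, had 161 and 226 CPM in polysome LF and 111 and 124 CPM in MF (0.63 ± 0.23 SE, adjusted p = 0.239). The 20 NSC markers had a median of 0.08, with 4 below MF and 7 above, and 19 proliferation genes a median of 0.12, with 1 below and 6 above. At an unadjusted p under 0.05 these lists held 2 lower and 4 higher, and 1 lower and 2 higher. DESeq2 called 2 higher NSC markers and 1 higher proliferation gene, and voom none. Without polysome LF replicate 2, 1 NSC marker was called lower and 2 higher, and 1 proliferation gene higher. ER chaperones (17 tested, 7 above MF and 4 below) had a median of 0.27, which was 0.08 without polysome LF replicate 2 and 0.04 with the GC trend removed, and cholesterol synthesis genes (21 tested, 10 above MF and 4 below) a median of 0.14. None was called by edgeR or voom (1 lower and 5 higher, and 1 lower and 7 higher, at an unadjusted p under 0.05), and DESeq2 called 1 lower and 2 higher in each list. Without that library 1 ER chaperone was called lower and 3 higher, and 3 cholesterol synthesis genes higher. The higher members of smallest p were Dnajb9 (0.90 ± 0.25 SE, adjusted p = 0.163) and Idi1 (0.88 ± 0.21 SE, adjusted p = 0.123).

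The study's interest was methylation of cytosine in mRNA (m5C). Its text names 28 mRNAs whose m5C and translation were related in the same way at all 3 doses. Of these, 13 had both LF ratios below MF and none above, and none was called. At an unadjusted p under 0.05 there was 1 lower, and DESeq2 and voom called none. The study picked these mRNAs from the same cells, by m5C and by level in polysome against total mRNA, so their direction is no separate evidence. Their median difference from MF was -0.02 in LF replicate 1 and -0.67 in LF replicate 2, the library that stood apart, and without that library 1 was called higher. The fitted median was -0.29, and it was 0.03 with the GC trend removed. Of 12 genes that write or read the mark, 4 were below 0, 3 had both LF ratios below MF and 3 above, and the median was 0.17. None was called by edgeR or voom (2 lower and 1 higher at an unadjusted p under 0.05), and Srsf2 was the member called higher without that library, while DESeq2 called 1 higher. The methyltransferase Nop2 was at -0.47 ± 0.19 SE (adjusted p = 0.283) and Nsun5 at -0.89 ± 0.35 SE (adjusted p = 0.264), while Trdmt1 was at 0.69 ± 0.35 SE (adjusted p = 0.364) and Nsun2 at 0.07 ± 0.19 SE (adjusted p = 0.892).

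Base composition went with the change across all coding genes, and mostly in a single library. In 10 bins of 13004 coding genes by transcript GC content, the median fitted change was 0.42 in the lowest bin (31.9% to 42.0% GC) and -0.70 in the highest (58.3% to 72.3%). LF replicate 2 alone gave 0.79 and -1.43, LF replicate 1 alone -0.06 and -0.24. The HF libraries, measured from the same MF mean, gave 0.24 and -0.27 in replicate 1 and 0.16 and -0.43 in replicate 2. The MF libraries differed from each other by a median of -0.21 in the lowest bin and -0.003 in the highest. Whether GC content, or what goes with it, has a part in the called changes was not tested beyond refitting with its trend removed. In that fit 20 of the 34 genes were again called, 11 of them coding, among them Rplp1 (-1.38, adjusted p = 0.0239), Uqcr11 (-1.39, adjusted p = 0.0217), Mt1 (-1.18, adjusted p = 0.029) and Rps26 (-1.43, adjusted p = 0.00313). The other 11 coding genes lost the call there, with values between -1.46 and -0.35 and adjusted p between 0.0568 and 0.576. They included Mt3 and both complex I subunits, given above, Rps15 (-0.69, adjusted p = 0.116), Rpl41 (-0.77, adjusted p = 0.12), Elob (-0.998, adjusted p = 0.0768), Bola2 (-0.996, adjusted p = 0.0867) and Gtpbp6 (-1.14, adjusted p = 0.075).

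**Figure D5:**
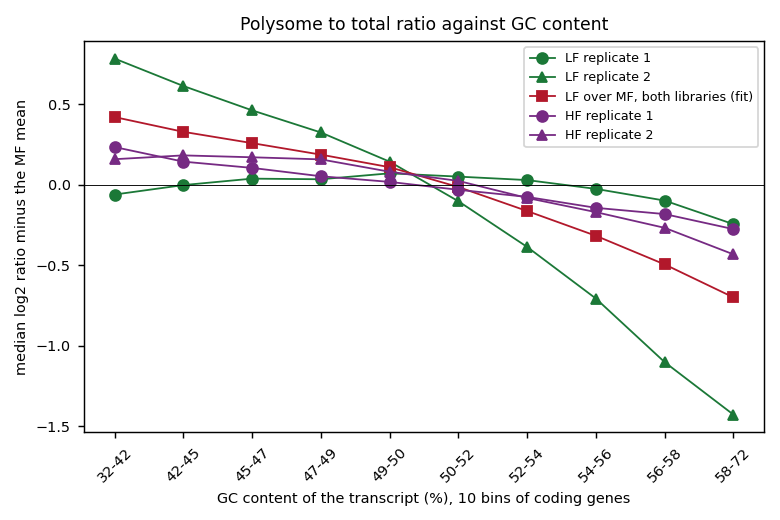
Median log2 polysome to total ratio minus the MF mean (y axis) in 10 bins of coding genes by the GC content of the transcript (x axis, in percent), for LF in green, HF in purple and the fit of LF over MF in red, with circles for replicate 1 and triangles for replicate 2. LF replicate 2 falls to -1.43 in the last bin, and LF replicate 1 stays between -0.24 and 0.07.

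Most of the called coding genes were short, also the single one with higher TE, at 489 bases. Of the 21 coding genes with lower TE, 15 (71.4%) had a coding sequence under 600 bases, against 12.3% of all tested coding genes, and 19 had a GC content above 50%, against 52.0%. Across all coding genes, the direction along length turned with the measure of length. By the effective length of the transcript in the deposited tables, the median change was -0.11 in the shortest of 10 bins and 0.08 in the longest. These medians were -0.10 and -0.08 in LF replicate 1 and -0.15 and 0.22 in LF replicate 2. By coding length, a measure added after the data were seen, the median change was 0.11 in the shortest bin and -0.11 in the longest. These medians were 0.06 and -0.14 in LF replicate 1 and 0.13 and -0.11 in LF replicate 2. At an unadjusted p under 0.05, 14.6% of the genes in the shortest bin by coding length were lower and 18.2% higher. In the longest bin these shares were 5.64% and 0.927%.

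The 34 calls depended on the fit more than the fold changes did. In every alternative that tested it, each of the 34 kept its sign. With the 8 LF and MF libraries alone, the fit called 4 genes (Prss23os, Gm8203, Rpl37rt and Gm10052), none of them protein-coding. Rplp1 then had an adjusted p of 0.0935. With the replicate number as a block in 12 libraries, 5 were called (Prss23os, Gm8203, Rplp1, Elob and Uqcr11). Without polysome LF replicate 2 the fit called 1001 genes, 33 of the 34 among them, and without replicate 1 it called 6853. With the called copies summed into their partners it called 4 (Rplp1, Elob, Uqcr11 and Thap3). The other 18 coding genes then had adjusted p between 0.0568 and 0.0684, with log2 values that moved by at most 0.00012.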

How the data were processed

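Total and polysome mRNA of NSCs at 3 doses of folic acid were compared in 12 libraries, 2 for each dose and fraction, grouped by their labels. Per the labels and the methods of the study, the authors aligned read pairs to mm10 (Bowtie2 2.2.9) and estimated gene counts by likelihood (RSEM 1.3.0). The deposited expected counts are RSEM estimates and need not be whole (4.04% to 5.95% of values were not), so they were rounded. The deposited effective length, an other measurement of RSEM, was used only to describe genes. The TPM and FPKM columns were not used. The kit kept strand, but whether RSEM used it is not given in the sources used here.

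Of 43432 identifiers, 42548 (97.96%) matched GENCODE M21, which gave symbols, positions, coding lengths and transcript GC content for 1 transcript per gene. Coding length, added after the data were seen, stood in for the protein length named in the plan, which was not used here. Genes passing filterByExpr were fitted with edgeR 4.0.16 in R 4.3.3 (TMM scaling, quasi-likelihood test, Benjamini-Hochberg adjustment) over all 12 libraries in 6 groups, which share an estimate of the spread (6 residual degrees of freedom, biological coefficient of variation 0.164). The polysome and total changes come from the same fit. The study used Xtail for TE, which was not used here. Calls needed adjusted p below 0.05 with a fold above 1.2. Every adjusted p for a gene in the text is edgeR's. Standard errors were derived from the F statistic of each change. A library's ratio is log2 of polysome CPM minus log2 of the mean total CPM of its dose, with 0.5 counts added, and CPM uses TMM-scaled library sizes except in marker sums and bounds for genes at 0, which use library totals. No molecular identifiers were used, so the true error exceeds counting error, and every replicate pair differed by more than sampling noise (chi-square over degrees of freedom 2.70 to 134.69).

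Copies were matched to coding genes with blastn 2.17.0. Alternatives used DESeq2 1.42.0, voom of limma 3.58.1, other scalings and filters, the replicate number as a block, each library left out, trends on GC content or coding length removed, and copies summed. The steps were tested on simulated data. Named genes were every called gene, the 15 coding genes of smallest p in each direction with ratios that did not overlap, up to 3 of smallest p per direction and list, the genes the study singled out and the partners of called copies. Some of these are not reported here by name. The lists and members were chosen with earlier results of these data known.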

Additional observations from a re-analysis of the deposited data

How the results depend on the processing

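The fit reported called 34 genes (29 lower, 5 higher), and the count stayed within 1.5 times of that with limma voom (46), a mean count of at least 50 (32), no fold threshold (34) and, chosen after the data were seen, a coding length trend removed (46). It was 4 in the 8 LF and MF libraries alone, 5 with a replicate block in 12 libraries and 4 with it in 8, 640 with DESeq2 (426 lower, 214 higher), 54 with DESeq2 size factors in edgeR, 22 with upper quartile scaling, 4 with library totals only (4 lower, 0 higher) and 229 with no filter on low counts. Chosen after the data were seen, removing the GC trend gave 179 (90 lower, 89 higher) and summing copies with their partners gave 4. Leaving out a library in turn gave between 2 and 6853: 2 without polysome MF replicate 1, 2 without polysome MF replicate 2, 1001 without polysome LF replicate 2 and 6853 without polysome LF replicate 1, and between 2 and 9 for the others. Leaving out an LF library leaves the other to stand for LF, and the cause of the moves was not tested. Over these alternatives the called genes, the 15 next to them in each direction, Ptx3, Nes and Sox2 (67 genes) kept their sign, and the side of the threshold changed in 641 of 1660 values. The median change of the shortest length bin minus that of the longest turned from -0.19 by effective length to 0.22 by coding length, a measure added after the data were seen (-0.01 and 0.20 in LF replicate 1, -0.36 and 0.24 in LF replicate 2), and the cause was not tested. Replicate numbers were not used to pair the samples in the fit reported. Correlations of replicate differences between groups lay between -0.37 and 0.33, which neither shows nor excludes a pairing. Depth limits genes such as Tmem121, at 1.10 and 0.61 CPM in polysome LF.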

Other observations

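Rps12, a small subunit protein gene named here after its values were seen, had 726 counts in polysome LF replicate 1 and 0 in replicate 2, against 2311 and 2932 in polysome MF, and 4443 and 6171 counts in total LF against 5480 and 5088 in total MF. Its fitted change was -2.64 ± 1.46 SE (adjusted p = 0.402).

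Sumo2, a ubiquitin-like modifier, had 411 and 589 CPM in polysome LF and 236 and 215 CPM in MF (1.08 ± 0.23 SE, adjusted p = 0.096). Splicing and proteasome proteins had members on both sides. Of the 18 Sm and LSm proteins, which form the core of splicing and decay particles, Snrpd1 was at 0.83 ± 0.21 SE (adjusted p = 0.14) and Lsm4 at -0.98 ± 0.27 SE (adjusted p = 0.166). Of 14 proteasome core subunits, Psmb5 was at -1.09 ± 0.21 SE (adjusted p = 0.077) and Psma1 at 0.53 ± 0.21 SE (adjusted p = 0.277).

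With the GC trend removed, a setting chosen after the data were seen, genes called there and not in the fit reported included Sox21, a transcription factor of neural progenitors (1.47, adjusted p = 0.00751, and 0.79 with adjusted p = 0.154 in the fit reported), and Ckb, the brain creatine kinase (-0.98, adjusted p = 0.0104, and -1.69 with adjusted p = 0.106). Both were chosen after their values were seen.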
